A study of Homo sapiens with 36 samples.

Results

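The genes described here encode the vacuolar proton pump and the lysosome it acidifies: 41 genes, listed by symbol and matched to their Ensembl identifiers in the count tables, out of 57500 gene identifiers. The list holds 8 subunits of the V1 sector of the vacuolar ATPase (V-ATPase), 7 subunits of its V0 sector, 2 accessory subunits, 5 lysosomal membrane proteins, 8 cathepsins, 7 hydrolases or hydrolase activators, 3 MiT/TFE transcription factors and the autophagy receptor SQSTM1. All 41 passed the filter on low counts, which left 17720 genes.

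Messenger RNA was sequenced from THP-1 cells, a human monocytic leukaemia line, transduced with lentivirus carrying a non-target shRNA (shNT), an shRNA against NR4A2 (shNR4A2) or an shRNA against NR4A3 (shNR4A3). NR4A2 and NR4A3 are orphan nuclear receptors that immune stimuli induce. Each line was held in buffered medium at 5% CO2 (normocapnia) or 10% CO2 (hypercapnia) for 4 h, without LPS (basal) or with 2.5 µg/mL LPS, a bacterial cell wall component, for the last 2 h. The 12 conditions had 3 libraries each, 36 in all. All groups therefore carry a lentiviral shRNA, each target is represented by 1 stable line, and the medium was buffered for pH at both CO2 levels. The study describes its replicates as individual experiments, although the labels do not, and p-values measure the spread between these libraries.

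The V-ATPase is a rotary pump: its cytosolic V1 sector hydrolyses ATP and its membrane V0 sector carries protons into the lumen of endosomes and lysosomes. The low pH activates cathepsins and other acid hydrolases, and drives transporters such as the sialic acid exporter SLC17A5 and the chloride/proton exchanger CLCN7. TFEB, TFE3 and MITF bind the E-box core CACGTG within the CLEAR element of many lysosomal gene promoters, and monocytes and macrophages use lysosomes to degrade what they engulf.

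Promoter sequence, 250 bases before the RefSeq gene start (GRCh38.p14), is printed for 5 members whose RNA levels are described below. It is given for GAA, on the plus strand at chr17:80101331-80101580, LAMP1, on the plus strand at chr13:113296989-113297238, CLCN7, on the minus strand at chr16:1475029-1475278, NEU1, on the minus strand at chr6:31862822-31863071, and SLC17A5, on the minus strand at chr6:73653993-73654242. The first 4 show how the core is arranged in genes that hold it, and SLC17A5 is the member with the largest difference between CO2 levels. RefSeq starts differ from the ends of the Ensembl gene spans printed below. The CLCN7 stretch lies wholly within its Ensembl span, and the GAA, NEU1 and SLC17A5 stretches overlap theirs in part. Sequences read 5′ to 3′ on the gene's strand, and capitals mark CACGTG.
GAA: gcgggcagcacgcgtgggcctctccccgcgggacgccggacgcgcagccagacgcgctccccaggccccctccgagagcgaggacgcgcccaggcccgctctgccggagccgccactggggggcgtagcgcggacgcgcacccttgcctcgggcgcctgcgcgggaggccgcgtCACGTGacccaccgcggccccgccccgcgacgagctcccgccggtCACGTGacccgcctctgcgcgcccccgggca
LAMP1: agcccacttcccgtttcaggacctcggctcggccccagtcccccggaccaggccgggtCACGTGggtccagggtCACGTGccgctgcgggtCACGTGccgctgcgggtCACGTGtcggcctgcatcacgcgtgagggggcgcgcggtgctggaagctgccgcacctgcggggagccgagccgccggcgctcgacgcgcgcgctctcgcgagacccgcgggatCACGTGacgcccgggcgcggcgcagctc
CLCN7: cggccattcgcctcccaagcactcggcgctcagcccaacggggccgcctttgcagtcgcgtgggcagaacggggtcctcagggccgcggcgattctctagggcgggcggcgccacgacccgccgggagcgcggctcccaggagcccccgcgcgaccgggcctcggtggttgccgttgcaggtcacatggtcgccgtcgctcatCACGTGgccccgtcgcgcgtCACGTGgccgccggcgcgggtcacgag
NEU1: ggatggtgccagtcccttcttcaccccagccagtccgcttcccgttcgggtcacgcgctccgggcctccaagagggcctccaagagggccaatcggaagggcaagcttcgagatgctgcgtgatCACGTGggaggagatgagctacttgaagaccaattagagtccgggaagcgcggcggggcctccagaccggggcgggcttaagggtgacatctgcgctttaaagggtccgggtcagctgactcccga
SLC17A5: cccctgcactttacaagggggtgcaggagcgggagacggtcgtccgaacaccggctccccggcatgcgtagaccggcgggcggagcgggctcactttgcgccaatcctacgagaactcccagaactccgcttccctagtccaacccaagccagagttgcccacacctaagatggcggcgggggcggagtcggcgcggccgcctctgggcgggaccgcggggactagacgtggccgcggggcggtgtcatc

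GAA carried 2 copies of the core, LAMP1 5, CLCN7 2 and NEU1 1, and the letters did not occur in the SLC17A5 stretch. In the 31 members with a promoter window (300 bases, of which the last 50 follow the start), CACGTG occurred in 10 (32.3%), against 7.43% of all 27305 windows. These were ATP6V1G1, ATP6V0B, ATP6V0D1, LAMP1, MCOLN1, CLCN7, CTSA, CTSD, GAA and NEU1. The longer letters TCACGTGA, which contain that core, occurred in 6 (19.4%) against 1.04%, and the same letters with G before and C after in 3 (9.68%) against 0.381%, each searched on both strands. The NR4A half-site AAAGGTCA, searched after the expression values had been seen, was in none of the 31 windows and in 1.21% of all. Windows were not given for ATP6V1A, ATP6V1B2, ATP6V1C1, ATP6V1H, ATP6V0E1, LAMP2, CTSB, CTSS, HEXA and PSAP. A match describes the letters only.

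Libraries held 16171161 to 23929138 counts, with a median of 19639071. NR4A2 was lower in shNR4A2 than in shNT cells in all 4 conditions, by 0.91 to 1.67 on the log2 scale (edgeR adjusted p = 0.0337 or less). NR4A3 was lower in shNR4A3 cells in 3 of 4 conditions, by 0.82 to 2.47. At 10% CO2 without LPS, where its mean was 0.263 TPM (a read count scaled by gene length and library depth) in shNT cells and 0.205 in shNR4A3 cells, the NR4A3 difference of -0.39 did not pass the test (adjusted p = 0.736), so in that condition the knockdown is not shown by the target's RNA. The monocyte markers LYZ, CD14, CD33, ITGAM and FCGR1A were present in every condition, and the mean of CD3D, CD3E, MS4A1, HBB, EPCAM, COL1A1, COL1A2 and KRT18 was under 1 TPM in each. KRT8 had means of 0.60 to 1.41 TPM.

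The 41 genes together took 0.39% to 0.593% of all TPM in a library. PSAP, the precursor of the saposins that activate glycolipid hydrolases, was the highest, with a median of 896 TPM over the 36 libraries (591 to 1263). It was followed by the V1 subunit ATP6V1F at 358 TPM (290 to 455) and the carboxypeptidase CTSZ at 296 TPM (173 to 505), whose ranges overlap. Among the V0 a-subunits, which set where the pump is placed, TCIRG1 (a3) was by far the most abundant, with a median of 199 TPM against 13.8 for ATP6V0A1 and 9.26 for ATP6V0A2. Of the transcription factors, TFE3 had a median of 62.3 TPM and TFEB of 34.6, whereas MITF, at 1.9, was the lowest member of all. The lowest TFE3 library, at 37.5 TPM, was above the highest MITF library, at 3.25 TPM. TPM is scaled by the deposited gene length, so these levels can be compared between genes only roughly. Of the members, 16 have an exon that overlaps another gene, which may alter their counts.

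**Figure D1:**
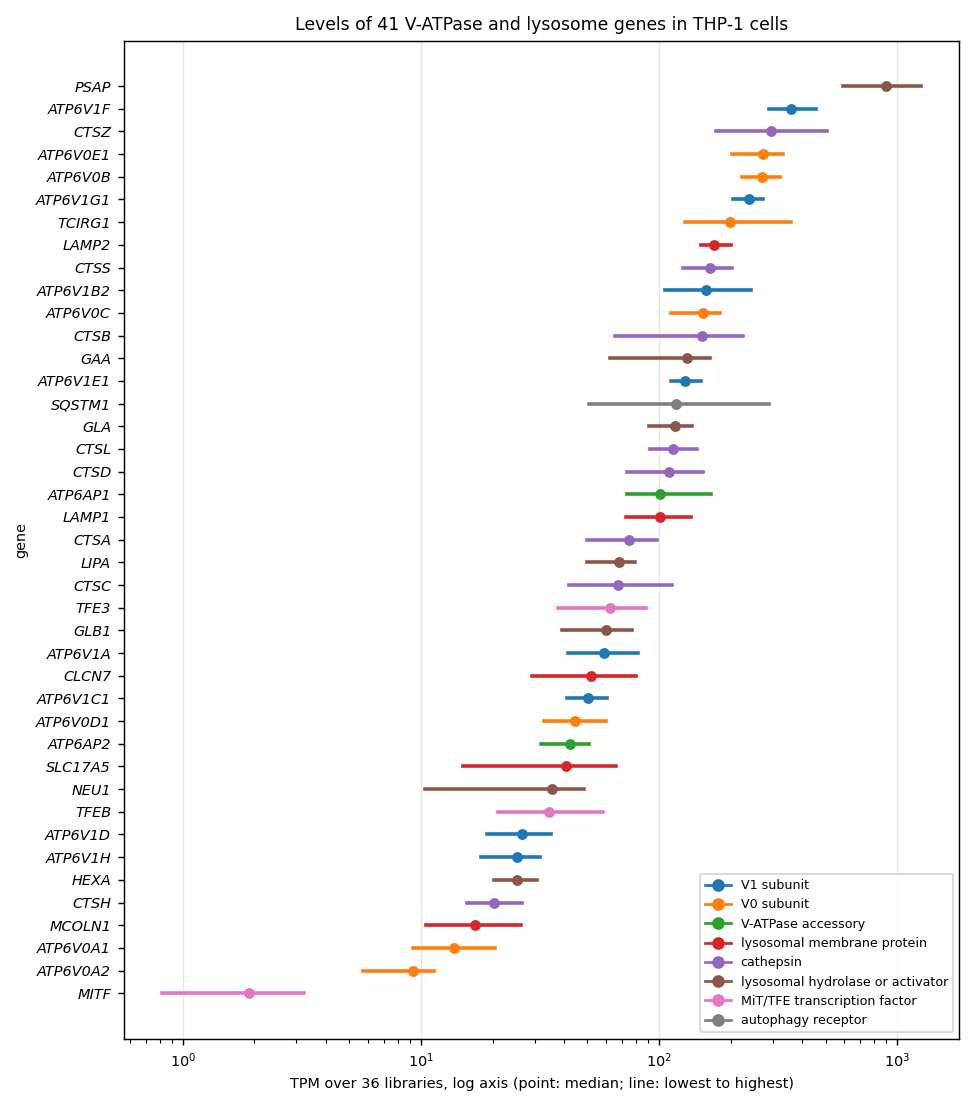
Levels of the 41 genes in TPM on a log axis, with the median (point) and the lowest to highest value (line) over the 36 libraries. PSAP is highest, with a median of 896 TPM, and MITF lowest, with 1.9 TPM.

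Transcription of the pump genes was compared between 10% and 5% CO2 in each line, with and without LPS, to ask whether hypercapnia alters the lysosomal programme. With edgeR in its main setting, no V-ATPase gene passed the test in any of the 6 comparisons. Their log2 fold changes ran from -0.29 (ATP6V0C, the proteolipid of the proton-carrying ring, SE 0.09, adjusted p = 0.0516, shNT cells with LPS) to 0.34 (ATP6V1D, adjusted p = 0.111, shNR4A3 cells with LPS). Counts of the 17 pump genes at an unadjusted p under 0.05 were 2, 2, 0, 1, 1 and 4, for shNT, shNR4A2 and shNR4A3 cells without and then with LPS. Of all genes, 14.9%, 25%, 8.07%, 16.3%, 16.7% and 19.1% had such a p in the same order. Other settings of the analysis called up to 3 of the 41 members in LPS-treated shNT cells and in basal shNR4A3 cells. Whether these included a pump gene is not given here. ATP6V1D shares 269 exonic bases with EIF2S1 on the opposite strand, and the strand setting of the counting is not given in the sources used here, so its value is uncertain.

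The genes that fell at 10% CO2 were 2 membrane transporters, SLC17A5 and CLCN7, both in LPS-treated shNT cells and both in LPS-treated shNR4A3 cells. That is 2 of 41 members (4.88%) in each. Of all genes tested, 8.19% were called in LPS-treated shNT cells, 4.47% higher and 3.72% lower, and 2.15% in LPS-treated shNR4A3 cells, 0.937% higher and 1.21% lower, so the members' share was below the background in the first and above it in the second. The study had already named SLC17A5 as responding to CO2 with LPS in every line, and the members were chosen with earlier results known. These shares are therefore no independent test of lysosomal genes as a set. In shNR4A2 cells with LPS edgeR called no member (0.198% of all genes), and DESeq2 called 1 (4.36%). There 4 members (9.76%) had a p under 0.05 before adjustment, below the 16.3% of all genes. Without LPS edgeR called no member in shNT (0.615%), shNR4A2 (0.0113%) or shNR4A3 (1.13%) cells. In these cells 2, 0 and 5 members (4.88%, 0% and 12.2%) had a p under 0.05 before adjustment. That was below the 14.9%, 8.07% and 16.7% of all genes. The numbers from DESeq2 were 0 (3%), 0 (0.391%) and 2 (4.55%). The median log2 fold change of the members lay between -0.04 and 0.00 in the 6 comparisons, and that of all genes between -0.01 and 0.00. The number in LPS-treated shNT cells became 0 without replicate 1 or 2 at 5% CO2 or replicate 2 at 10% CO2, and 1 without replicate 1 or 3 at 10% CO2. In LPS-treated shNR4A3 cells it became 0 without replicate 1 or 2 at 10% CO2, and 1 without replicate 1 or 2 at 5% CO2 or replicate 3 at 10% CO2. Leaving out replicate 3 at 5% CO2 raised it to 1 in LPS-treated shNR4A2 cells, as did leaving out replicate 1 at 10% CO2 in basal shNR4A3 cells.

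SLC17A5 (ENSG00000119899, minus strand, chr6:73593379-73654155) exports sialic acid released in the lysosome. In shNT cells with LPS its normalised read counts were 44.2, 43.9 and 35.2 CPM (counts scaled to a common library size) at 5% CO2 and 30.6, 23.1 and 28.1 CPM at 10% CO2, and in shNR4A3 cells they were 37.1, 42.5 and 32.6 against 24.6, 17.4 and 20.7. The values did not overlap in either line. In shNR4A2 cells they were 36.2, 37.1 and 27.2 against 24.2, 18.6 and 16.8, again without overlap. Log2 fold changes were -0.59 (SE 0.12, adjusted p = 0.0134), -0.83 (SE 0.14, adjusted p = 0.0212) and -0.76 (SE 0.16, adjusted p = 0.0805) in shNT, shNR4A3 and shNR4A2 cells, so that the last did not pass edgeR's quasi-likelihood test, although DESeq2 (adjusted p = 0.00373) called it. Without LPS the differences were smaller, -0.16, -0.37 and -0.26 in the same order, and none passed. The test of whether LPS altered the CO2 difference gave -0.42 in shNT, -0.46 in shNR4A3 and -0.50 in shNR4A2 cells, with unadjusted p = 0.018, 0.0262 and 0.0311 but adjusted p = 0.749, 0.849 and 0.947. The shNT call was lost without replicate 1 (adjusted p = 0.0567) or 2 (0.0559) at 5% CO2 or replicate 2 (0.058) at 10% CO2, and the shNR4A3 call without replicate 1 (0.0721) or 2 (0.122) at 10% CO2.

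CLCN7 (ENSG00000103249, minus strand, chr16:1444934-1475580), the lysosomal exchanger of chloride for protons, showed a smaller difference. Its normalised read counts in LPS-treated shNT cells were 126, 114 and 101 CPM at 5% CO2 and 90.5, 91.0 and 85.8 CPM at 10% CO2, and in shNR4A3 cells they were 123, 136 and 112 against 96.9, 93.0 and 92.8. Both pairs of groups were separate, whereas in shNR4A2 cells (93.9, 120.4 and 96.4 against 79.9, 84.4 and 94.9) the groups overlapped. As log2 fold changes these were -0.34 in shNT (SE 0.08, adjusted p = 0.028), -0.39 in shNR4A3 (SE 0.09, adjusted p = 0.0442) and -0.26 in shNR4A2 cells (SE 0.12, adjusted p = 0.295). Both calls rested on nearly every library. Each was kept only without replicate 3 at 5% CO2, and leaving out any other library gave an adjusted p of 0.0561 to 0.106 in shNT cells and 0.0785 to 0.213 in shNR4A3 cells. CLCN7 overlaps 1124 and 183 exonic bases of 2 unnamed genes on the opposite strand whose median counts were 0 and 15.5.

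**Figure D2:**
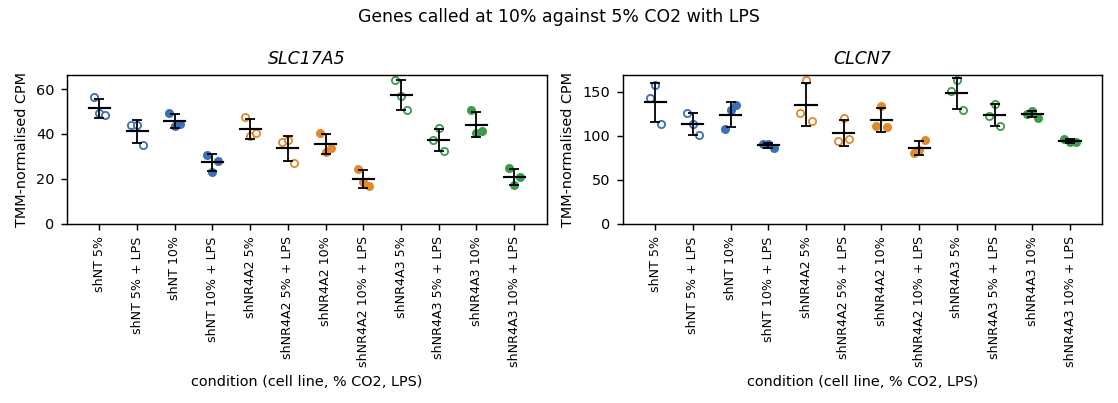
Normalised counts (CPM) of SLC17A5 and CLCN7 in each library by condition, with 5% CO2 as open and 10% CO2 as filled points, shNT in blue, shNR4A2 in orange and shNR4A3 in green, and black lines for the mean ± SD of 3 libraries. With LPS, the SLC17A5 points at 10% CO2 (16.8 to 30.6) lie below those at 5% CO2 of the same line.

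The transcription factors did not pass the CO2 test. TFEB, which drives lysosomal genes when it is in the nucleus, had values of 87.4, 83.0 and 75.3 CPM at 5% CO2 and at most 68.5 CPM at 10% CO2 in basal shNR4A3 cells, without overlap. The log2 fold change was -0.46 (SE 0.11, adjusted p = 0.0501, and 0.00643 with DESeq2), and it ranged from -0.09 to -0.31 in the 5 other comparisons. TFE3 lay between -0.10 and 0.20. MITF, at 1.49 to 7.86 CPM, had positive values of 0.19 to 0.52, none of them called.

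LPS was followed by more calls among these genes than CO2, with the largest effects on SQSTM1, the receptor that carries ubiquitinated cargo into autophagosomes, and on CTSC, the dipeptidyl peptidase that activates granule serine proteases. In shNT cells at 5% CO2, 10 of 41 members were called (22.9% of all genes tested), 9 higher (11.2%) and 1 lower (11.6%), and at 10% CO2 13 (31.2%), 11 higher (15.1%) and 2 lower (16.1%). In shNR4A2 cells 8 were called at 5% CO2 (18.2%), all 8 higher (8.91%, with 9.26% of all genes lower), and 18 at 10% CO2 (35%), 16 higher (16.5%) and 2 lower (18.5%). In shNR4A3 cells there were 11 at 5% CO2 (25.3%), 8 higher (11.9%) and 3 lower (13.4%), and 25 at 10% CO2 (42.1%), 19 higher (20.6%) and 6 lower (21.5%). In both directions together the members' share was 24.4%, 31.7%, 19.5%, 43.9%, 26.8% and 61%, near the background in the first 3 and the fifth and above it at 10% CO2 in both knockdown lines. That excess depended on the scaling, as described below. The median member log2 fold change was 0.12 to 0.22, against -0.01 to 0.00 over all genes.

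With the replicate number as a block the number at 5% CO2 was 14 in shNR4A2 cells (27.7% of all genes) and 19 in shNR4A3 cells (35.6%). Without the block it became 4 in shNR4A2 cells at 5% CO2 when replicate 1 without LPS, or replicate 1 or 3 with LPS, was left out, and 5 without basal replicate 3. It became 11 in shNR4A2 cells at 10% CO2 without basal replicate 3, and 7 in shNR4A3 cells at 5% CO2 without LPS replicate 1.

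The split between higher and lower, and the members' share against that of all genes, depended on the scaling. TMM assumes that most genes do not change, and scaling by library totals alone moved the LPS median of all genes to between -0.18 and -0.25. On that scale the calls were 5 higher and 3 lower (30.3% of all genes called), then 5 and 12 (39.6%), in shNT cells at 5% and 10% CO2. They were 3 and 5 (26.4%), then 7 and 12 (43.6%), in shNR4A2 cells, and 5 and 12 (33.4%), then 6 and 12 (49.4%), in shNR4A3 cells. The increases below are therefore relative to the median gene. In both directions together, library totals gave 18 members in shNR4A3 cells at 10% CO2, below the share of all genes. In shNR4A2 cells at 10% CO2 the 19 members were near that share. Both 5% CO2 numbers of 8, in shNT and shNR4A2 cells, were below it. The 17 in shNT cells at 10% CO2 were near it, and the 17 in shNR4A3 cells at 5% CO2 above it. SQSTM1, CTSC, TFE3, ATP6AP1, ATP6AP2 and ATP6V1B2 kept positive values in all 6 comparisons on either scale, and SLC17A5 and CLCN7 negative ones. In shNR4A3 cells at 10% CO2, ATP6V1E1, ATP6V0B, LAMP2 and HEXA were called higher under TMM (0.21 to 0.25), and library totals gave values of -0.04 to 0.00.

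SQSTM1 (ENSG00000161011, plus strand, chr5:179806398-179838078) was at 199, 147 and 149.9 CPM in shNT cells at 5% CO2 and at 654, 399.7 and 522 CPM after LPS. Over all lines and CO2 levels the 18 libraries without LPS held 104 to 199 CPM and the 18 with LPS 319 to 654 CPM, with no overlap. Its log2 fold changes were 1.62 to 1.81, with adjusted p from 5e-08 to 0.00119, and no left-out library ended a call. The gene shares 1582 exonic bases with MRNIP on the opposite strand, whose median count was 273 against 4908 for SQSTM1.

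CTSC (ENSG00000109861, minus strand, chr11:88293592-88337787) was at 172, 160.1 and 172 CPM in shNT cells at 5% CO2 and at 366, 344 and 371 CPM after LPS. All 18 libraries without LPS (123 to 205 CPM) lay below all 18 with it (224 to 407 CPM). On the log2 scale the differences were 0.93 to 1.11 (adjusted p = 0.000345 or less), and every one was called whichever library was left out. The other cathepsins moved less. CTSH, an aminopeptidase, rose in 4 of 6 comparisons by 0.40 to 0.51, CTSA in 2 by 0.31, and CTSL fell in 1 by 0.19, whereas CTSB, CTSD, CTSS and CTSZ were not called. Without TMM the CTSZ values were -0.20 to -0.39, and 4 of the 6 passed.

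TFE3 (ENSG00000068323, minus strand, chrX:49028726-49043486) was the only one of the 3 listed transcription factors that was called higher. Its values in shNT cells at 5% CO2 were 56.4, 49.7 and 46.0 CPM without and 93.8, 72.3 and 87.1 CPM with LPS, and within each line the libraries with LPS lay above those without, except that in shNR4A2 cells 1 LPS library (76.9 CPM, at 5% CO2) was below the highest basal one (79.7 CPM, at 10% CO2). Fitted log2 fold changes were 0.74 and 0.71 in shNT cells at 5% and 10% CO2, 0.52 and 0.65 in shNR4A2 cells, and 0.82 and 1.05 in shNR4A3 cells. All 6 were called. The smallest, in shNR4A2 cells at 5% CO2 (SE 0.15, adjusted p = 0.0218), was lost without replicate 1 or 2 without LPS, or replicate 1 or 3 with LPS (adjusted p = 0.0523 to 0.0883). The related TFEB had values of -0.08 to -0.47 and passed only in shNR4A3 cells at 5% CO2 (-0.47, SE 0.09, adjusted p = 0.00216), where it went from 87.4, 83.0 and 75.3 to 59.9, 59.7 and 58.5 CPM without overlap. MITF was not called, with values of 0.02 to 0.35.

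**Figure D3:**
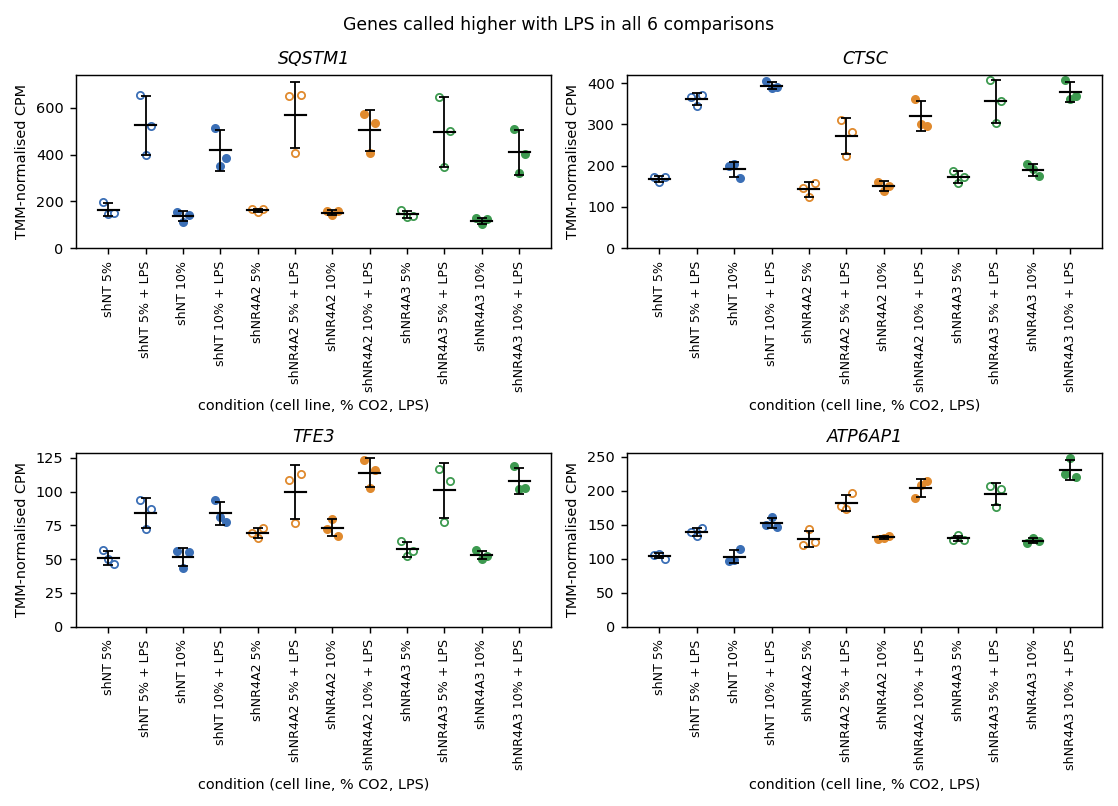
Normalised counts (CPM) of SQSTM1, CTSC, TFE3 and ATP6AP1 in each library by condition, coloured by line, with open points for 5% and filled points for 10% CO2 and black lines for the mean ± SD of 3 libraries. For SQSTM1 (319 to 654 against 104 to 199 CPM) and CTSC (224 to 407 against 123 to 205 CPM) every library with LPS lies above every library without it.

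Within the pump, the 2 accessory subunits and 1 subunit of the catalytic V1 head were called with LPS in all 6 comparisons. ATP6AP1, which assists assembly of the V0 sector, went from 106, 107 and 99.9 to 139, 134 and 146 CPM in shNT cells at 5% CO2, without overlap. Its log2 fold changes were 0.43 to 0.89 in the 6 comparisons, all called, although the one of 0.49 in shNR4A2 cells at 5% CO2 was lost without basal replicate 1 (adjusted p = 0.0514). ATP6AP2, the prorenin receptor, had 0.32 to 0.52, all called. Its calls at 5% CO2 were lost in shNR4A2 cells without any library but LPS replicate 2 (adjusted p up to 0.156) and in shNR4A3 cells without replicate 1 or 2 without LPS or replicate 1 or 3 with LPS (up to 0.127), and by library totals only 1 of the 6 passed. ATP6V1B2, a nucleotide-binding subunit of the head, had 0.66 to 0.74, all called, from 255, 229 and 229.8 to 418, 364 and 371 CPM in shNT cells at 5% CO2. Smaller differences passed for ATP6V1C1 in 4 comparisons (0.27 to 0.35), ATP6V1E1 in 3 (0.21 to 0.28), ATP6V0C in 3 (0.33 to 0.37), ATP6V0E1 in 2 (0.25 to 0.29) and ATP6V0B in 1 (0.25). Each of these calls was lost without at least 2 of the 6 libraries, and none passed by library totals. The 8 V1 genes gave 15 calls in 48 gene-by-comparison tests and the 7 V0 genes 8 in 42, both within the 18.2% to 42.1% of all genes called per comparison. Lower calls came from ATP6V1H, ATP6V0A2 and ATP6V0A1, with values of -0.25 to -0.48.

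SLC17A5 fell with LPS in 5 of 6 comparisons. In shNT cells at 10% CO2 it went from 49.2, 43.4 and 44.6 to 30.6, 23.1 and 28.1 CPM, and in shNR4A3 cells at 10% CO2 from 50.6, 40.3 and 41.5 to 24.6, 17.4 and 20.7 CPM, in both without overlap. In log2 units the differences were -0.32 (adjusted p = 0.0413) and -0.74 (0.000118) in shNT cells at 5% and 10% CO2, -0.34 (0.132, not called) and -0.83 (0.000285) in shNR4A2 cells, and -0.62 (0.00226) and -1.06 (2.51e-05) in shNR4A3 cells. The first was lost without replicate 1 (adjusted p = 0.181) or 2 (0.0621) without LPS or replicate 3 (0.181) with LPS. CLCN7 fell in the 3 comparisons at 10% CO2, by 0.39 to 0.47 (adjusted p = 0.00428 or less), and had -0.27 to -0.39 at 5% CO2, where none passed. Whether the LPS effect differed between CO2 levels was tested as an interaction. No member passed in any line, against 0.0226% of all genes in shNT cells and 0% in the other lines, and DESeq2 called 0. At an unadjusted p under 0.05 there were 1, 1 and 3 members (2.44%, 2.44% and 7.32%) in shNT, shNR4A2 and shNR4A3 cells. Of all genes, 5.78%, 5.1% and 5.62% had such a p. Of the hydrolases, NEU1, the sialidase that frees sialic acid, rose in 4 comparisons by 0.37 to 0.73, PSAP in 4 by 0.27 to 0.47, HEXA in 3 by 0.22 to 0.38 and GLA in 2 by 0.25 to 0.31, and by library totals NEU1 passed in 2 and PSAP in none.

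Knockdown of either receptor was compared with shNT cells at each CO2 level and LPS state, to ask whether the lysosomal genes depend on NR4A2 or NR4A3. The comparisons for the 2 lines share the same shNT libraries and are not independent. More members rose than fell. In either direction, hydrolases and their activators gave 25 calls in 56 gene-by-comparison tests and cathepsins 21 in 64. Of these calls, 4 were falls of NEU1 and 1 a fall of CTSC. Per comparison, 5.41% to 18.9% of all genes were called. The acid alpha-glucosidase GAA (8 of 8) and the cysteine protease CTSB (7 of 8) rose in the most comparisons. The median log2 fold change was highest for the 3 transcription factors (0.37), against 0.26 for the hydrolases and 0.18 for the cathepsins. The transcription factors gave 7 calls in 24 such tests. The highest median among them was that of MITF (0.56), the member with the lowest level. Of the members that fell, NEU1 did so in all 4 comparisons of shNR4A2 cells and in none of shNR4A3 cells. SLC17A5 (by 0.47, adjusted p = 0.0373) and CTSC fell in shNR4A2 cells at 10% CO2 with LPS, and ATP6V0A2 in shNR4A3 cells at 10% CO2 with LPS. The SLC17A5 call was lost without shNT replicate 1 or 3 or shNR4A2 replicate 2 or 3 (adjusted p = 0.113 to 0.166), and the CTSC call without any library but shNR4A2 replicate 1 (0.0527 to 0.116). In shNR4A2 cells 27 of the 41 members had a positive log2 fold change in all 4 conditions and 6 a negative one, and in shNR4A3 cells 28 and 4. The 4 comparisons of a line contrast the same pair of lines, so a fixed difference between them repeats its sign. The share of all genes with 1 sign throughout is not given here. The median share of TPM held by the 41 genes was 0.424% to 0.453% in the shNT conditions, 0.517% to 0.546% in shNR4A2 and 0.536% to 0.576% in shNR4A3.

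In shNR4A2 cells, 6 members were called at 5% CO2 (5.69% of all genes tested), 5 higher (3.22%) and 1 lower (2.47%), and LPS treatment gave 6 (6.21%), of which 5 rose (3.84%) and 1 fell (2.36%). At 10% CO2 5 were called (7.95%), 4 higher (4.55%) and 1 lower (3.4%), and LPS treatment gave 23 (18.9%), of which 20 rose (9.29%) and 3 fell (9.58%). In shNR4A3 cells 10 were called at 5% CO2 (6.19%), all higher (3.36%, with 2.83% of all genes lower), and 8 with LPS (5.41%), all higher (3.24%, with 2.17% lower). At 10% CO2 5 were called (6.85%), all higher (3.49%, with 3.35% lower), and LPS treatment gave 18 (14.5%), of which 17 rose (7.3%) and 1 fell (7.21%). In each of the 8 comparisons the members' share, 12.2% to 56.1%, was above that of all genes. The median member log2 fold change was 0.13 to 0.26, against -0.01 to 0.00 over all genes. With the replicate number as a block there were 22 (21.5%) and 27 (24.7%) at 5% CO2 without and with LPS in shNR4A2 cells. In shNR4A3 cells there were 17 (13%) and 18 (18.7%) at 5% CO2 without and with LPS, and 12 (13.5%) at 10% CO2 without LPS.

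The numbers depended on single libraries. Those for shNR4A2 cells became 3, 2 and 3 at 5% CO2 without shNT replicate 2, shNT replicate 3 or shNR4A2 replicate 1, and 2, 1, 1, 12 and 2 with LPS without shNT replicate 1, 2 or 3 or shNR4A2 replicate 2 or 3. At 10% CO2 they became 2 without shNT replicate 2 and 8 without shNR4A2 replicate 2, and with LPS 9 without shNT replicate 3 and 12 without shNR4A2 replicate 3. Those for shNR4A3 cells became 5, 6 and 6 at 5% CO2 without shNT replicate 3 or shNR4A3 replicate 1 or 3, and 5 with LPS without shNT replicate 2 or without shNT replicate 3. At 10% CO2 they became 9 without shNT replicate 1 and 8 without shNT replicate 3, and with LPS 11 without shNT replicate 3.

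Some of the monocyte markers, though not all, also differed between the lines. LYZ, the lysozyme gene, was at 192.5 TPM in shNT cells at 5% CO2, 616 in shNR4A2 cells and 883 in shNR4A3 cells, and rose in all 8 comparisons, by 1.67 to 1.76 in shNR4A2 and 2.15 to 2.29 in shNR4A3 cells on the log2 scale. CD14 was at 22.6, 50.2 and 40.0 TPM in the same conditions and passed the test in 3 of 4 shNR4A2 comparisons and in no shNR4A3 comparison. ITGAM was at 29.4, 44.2 and 49.5 TPM, whereas CD33 (38.8, 41.9 and 36.6 TPM) and FCGR1A (96.8, 113 and 92.9 TPM) lay closer together. The part of cell state in the lysosomal differences was not tested, and in bulk RNA a change in the mix of cells and a change in RNA per cell cannot be told apart.

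GAA (ENSG00000171298, plus strand, chr17:80101556-80119879), which degrades glycogen in the lysosome, was called in all 8 comparisons. At 5% CO2 its values were 119.7, 127 and 101 CPM in shNT cells, 192, 217 and 163 CPM in shNR4A2 cells and 211, 207 and 188 CPM in shNR4A3 cells. Over all 4 conditions the 12 shNT libraries held 101 to 138 CPM, the 12 shNR4A2 libraries 163 to 220.2 CPM and the 12 shNR4A3 libraries 177 to 228 CPM. No shNT library reached a knockdown library, and the 2 knockdown lines overlapped. The fitted log2 fold changes were 0.71 to 0.90 in shNR4A2 cells and 0.70 to 0.94 in shNR4A3 cells, with adjusted p from 5.98e-06 to 0.00476, and no left-out library ended a call.

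CTSB (ENSG00000164733) was called in 7 of 8 comparisons, but its replicates were spread. At 5% CO2 its values were 279.8, 198 and 175 CPM in shNT cells, 392, 324 and 303 CPM in shNR4A2 cells and 450.2, 347 and 381 CPM in shNR4A3 cells. The shNT libraries (166 to 279.8 CPM over all conditions) lay below all those of shNR4A2 (283 to 458 CPM) and shNR4A3 (297 to 467 CPM) cells, and replicate 1 was the highest in each of the 12 conditions. Log2 fold changes were 0.65 to 0.82 in shNR4A2 cells, the largest with an adjusted p of 0.0589, and 0.74 to 0.90 in shNR4A3 cells, with adjusted p from 0.0131 to 0.0486. With the replicate number as a block all 8 passed. Without the block the shNR4A2 calls were lost without shNT replicate 2 or 3 or shNR4A2 replicate 1, at 5% CO2, at 10% CO2 and at 5% CO2 with LPS, and there also without shNR4A2 replicate 3 (adjusted p = 0.058 to 0.15). The shNR4A3 calls were lost at 5% CO2 without shNT replicate 2 or shNR4A3 replicate 3, at 10% CO2 without shNT or shNR4A3 replicate 3, and with LPS, at either CO2 level, without shNT replicate 2 or 3 or shNR4A3 replicate 1 or 3 (adjusted p = 0.0535 to 0.215).

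CTSZ (ENSG00000101160, minus strand, chr20:58995185-59007247) was called in all 4 shNR4A3 comparisons and in 1 of shNR4A2. Its values at 5% CO2 were 140.3, 126 and 119 CPM in shNT cells, 194, 174 and 146 CPM in shNR4A2 cells and 278, 232 and 236 CPM in shNR4A3 cells. Over all conditions the shNR4A3 libraries (207 to 278 CPM) lay above the shNT libraries (117 to 148 CPM), and the shNR4A2 libraries (142 to 229 CPM) overlapped both. As log2 fold changes these were 0.80 to 0.95 in shNR4A3 cells (adjusted p = 0.000417 or less), kept whichever library was left out, and 0.37 to 0.42 in shNR4A2 cells. The shNR4A2 call, at 10% CO2 with LPS (adjusted p = 0.0248), was lost without shNT replicate 2 or 3 or shNR4A2 replicate 3 (0.0571 to 0.114). CTSA, which protects NEU1 and the beta-galactosidase GLB1, rose in 5 comparisons by 0.33 to 0.58, and CTSC fell in 1, at 10% CO2 with LPS in shNR4A2 cells, by 0.30 (adjusted p = 0.0239).

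NEU1 (ENSG00000204386, minus strand, chr6:31857659-31862906), taken up after its values had been seen, gave the largest knockdown difference of any member. At 5% CO2 it was at 46.4, 40.5 and 39.8 CPM in shNT cells, 17.6, 13.0 and 21.4 CPM in shNR4A2 cells and 49.0, 44.0 and 44.0 CPM in shNR4A3 cells. Over all conditions no shNR4A2 library (13.0 to 36.6 CPM) reached the lowest shNT library (39.8 CPM), and the shNT (39.8 to 64.2 CPM) and shNR4A3 (44.0 to 75.7 CPM) libraries overlapped. The log2 fold changes in shNR4A2 cells were -1.28 (SE 0.16, adjusted p = 0.000718) at 5% CO2, -0.96 (SE 0.23, adjusted p = 0.048) with LPS, -1.43 (SE 0.12, adjusted p = 1.1e-07) at 10% CO2 and -1.09 (SE 0.09, adjusted p = 9.08e-06) with LPS. The second was lost without any shNT library or without shNR4A2 replicate 1 (adjusted p = 0.0986 to 0.146). In shNR4A3 cells the values were 0.03 to 0.11, none called.

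**Figure D4:**
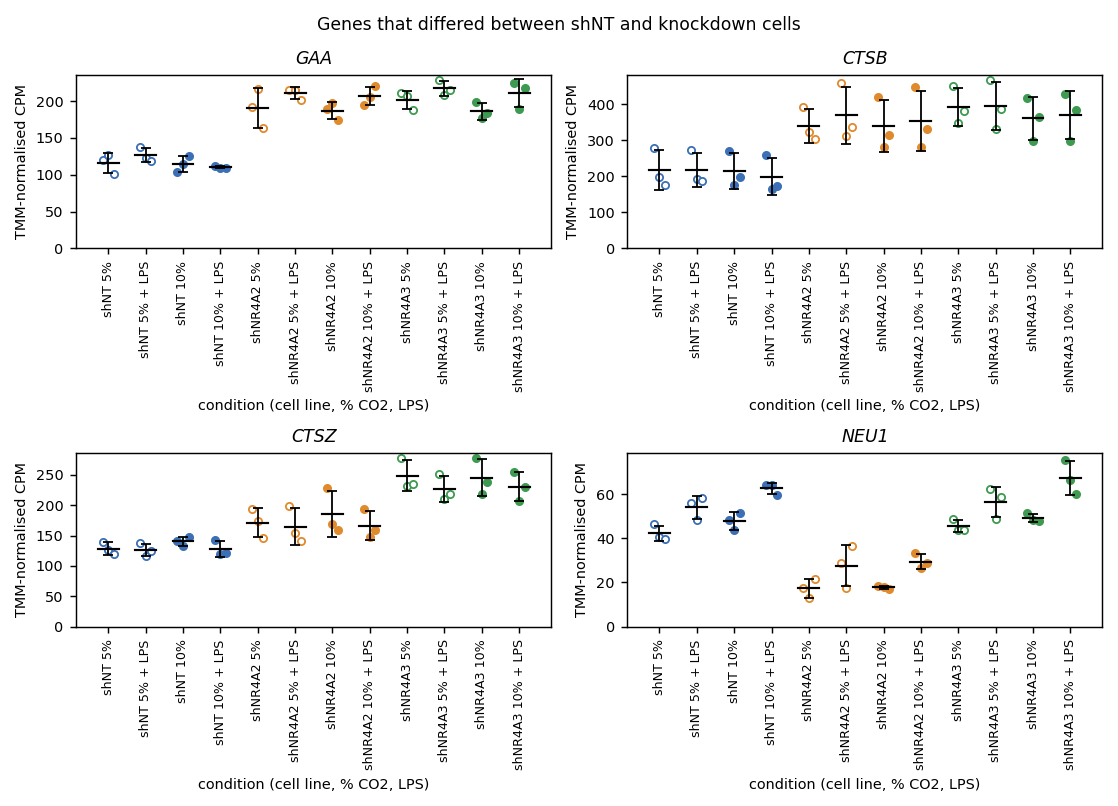
Normalised counts (CPM) of GAA, CTSB, CTSZ and NEU1 in each library by condition, shNT in blue, shNR4A2 in orange and shNR4A3 in green, with open points for 5% and filled points for 10% CO2 and black lines for the mean ± SD of 3 libraries. GAA and CTSB are above every shNT library in both knockdown lines, CTSZ is highest in shNR4A3 cells (207 to 278 CPM) and NEU1 lowest in shNR4A2 cells (13.0 to 36.6 CPM).

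LAMP1, an abundant glycoprotein of the lysosomal membrane, passed in all 4 shNR4A3 comparisons and in none of shNR4A2. Its values at 5% CO2 were 150.1, 153 and 129 CPM in shNT, 155, 168 and 143 CPM in shNR4A2 and 209, 198 and 192 CPM in shNR4A3 cells. The shNR4A3 libraries of each condition lay above the shNT ones. On the log2 scale the differences were 0.43 to 0.62 (adjusted p = 0.0058 or less) in shNR4A3 cells and 0.08 to 0.18 in shNR4A2 cells, and no left-out library ended a call. PSAP rose in all 4 shNR4A3 comparisons, by 0.53 to 0.73 (adjusted p = 0.0101 or less), and in shNR4A2 cells at 10% CO2 with LPS, by 0.49 (adjusted p = 0.00375). The PSAP call at 5% CO2 with LPS was lost without shNT replicate 2 (adjusted p = 0.0529) or 3 (0.0513). MCOLN1, the calcium-permeable TRPML1 channel, rose in 3 shNR4A2 comparisons by 0.46 to 0.51.

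The 2 knockdown lines were also compared directly, a test added after the values had been seen. Of the 41 members, 2 differed between shNR4A3 and shNR4A2 cells at 5% CO2 (2.7% of all genes), 5 at 10% CO2 (7.56%) and 3 at 10% CO2 with LPS (6.04%). At 5% CO2 with LPS edgeR called none (2.25%), and DESeq2 called 3. There 9 members (22%) had a p under 0.05 before adjustment, against 16.5% of all genes. With the replicate block the numbers were 12 (11.2%), 15 (20.7%), 13 (16.2%) and 16 (21.5%) in the same order. NEU1 was higher in shNR4A3 cells by 1.39 at 5% CO2, 1.46 at 10% CO2 and 1.196 at 10% CO2 with LPS, and its value of 1.03 at 5% CO2 with LPS did not pass (adjusted p = 0.082). The number at 5% CO2 became 1 without shNR4A2 replicate 3 or shNR4A3 replicate 1 or 3, and with LPS 1 without any 1 shNR4A2 library. At 10% CO2 it became 11 without shNR4A2 replicate 1 and 3 without shNR4A2 replicate 3 or any 1 shNR4A3 library, and with LPS 6 without shNR4A2 replicate 1.

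Of the 17 pump genes, 1, 1, 0 and 7 were called in shNR4A2 cells at 5% CO2, 5% CO2 with LPS, 10% CO2 and 10% CO2 with LPS (all genes 5.69%, 6.21%, 7.95% and 18.9%), and 3, 2, 0 and 6 in shNR4A3 cells (6.19%, 5.41%, 6.85% and 14.5%). A single call among 17 is near the share of all genes, none is below it, and the other 4 numbers are above it. The V0 genes gave 14 calls in 56 gene-by-comparison tests, above the 5.41% to 18.9% of all genes called per comparison, and the V1 genes 1 in 64, below it. ATP6AP1 was higher in 5 comparisons (0.32 to 0.60), ATP6V0E1, a small V0 subunit, in 4 (0.40 to 0.44), and TCIRG1 (0.34 to 0.51) and ATP6V0D1 (0.24 to 0.41) in 3 each. ATP6V0A2 fell in 1, by 0.50, in shNR4A3 cells at 10% CO2 with LPS. The ATP6AP1 call in shNR4A3 cells at 5% CO2 was lost without any 1 library (adjusted p = 0.0721 to 0.129), and that in shNR4A2 cells at 5% CO2 with LPS without any but shNR4A2 replicate 2 (0.0561 to 0.15).

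The 3 listed transcription factors had positive values in both lines. Outside the 41, the related TFEC was called higher in 6 of the 8 comparisons, by 0.44 to 0.78. TFE3 was called in 3 shNR4A2 comparisons, with 0.45 at 5% CO2 (adjusted p = 0.0286), 0.50 at 10% CO2 (0.0135) and 0.44 at 10% CO2 with LPS (0.00484), and in shNR4A3 cells at 10% CO2 with LPS, with 0.37 (0.0137). The first was lost without shNT replicate 2 or 3 or shNR4A2 replicate 1 or 3 (adjusted p = 0.0763 to 0.15), the second without shNT replicate 2 (0.14) and the last without shNT replicate 3 (0.0898) or shNR4A3 replicate 1 (0.0511). At 10% CO2 TFE3 was at 55.8, 43.6 and 55.1 CPM in shNT and 72.5, 79.7 and 67.4 CPM in shNR4A2 cells, without overlap. TFEB was called at 10% CO2 with LPS in both lines (0.47, adjusted p = 0.0105, and 0.36, adjusted p = 0.0107), and neither call held without shNT replicate 3 (0.0579 and 0.0706). There its values were 44.5, 40.5 and 39.3 CPM in shNT, 50.3, 54.4 and 67.5 CPM in shNR4A2 and 52.5, 50.4 and 55.8 CPM in shNR4A3 cells. MITF was called once, in shNR4A2 cells at 10% CO2 with LPS (0.74, SE 0.20, adjusted p = 0.0228), where it went from 3.17, 4.38 and 3.88 to 7.86, 4.88 and 6.43 CPM. That call was lost without replicate 1 or 3 of either line (adjusted p = 0.0585 to 0.0752). SQSTM1 was not called in any of the 8, with values of -0.21 to 0.27.

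**Figure D5:**
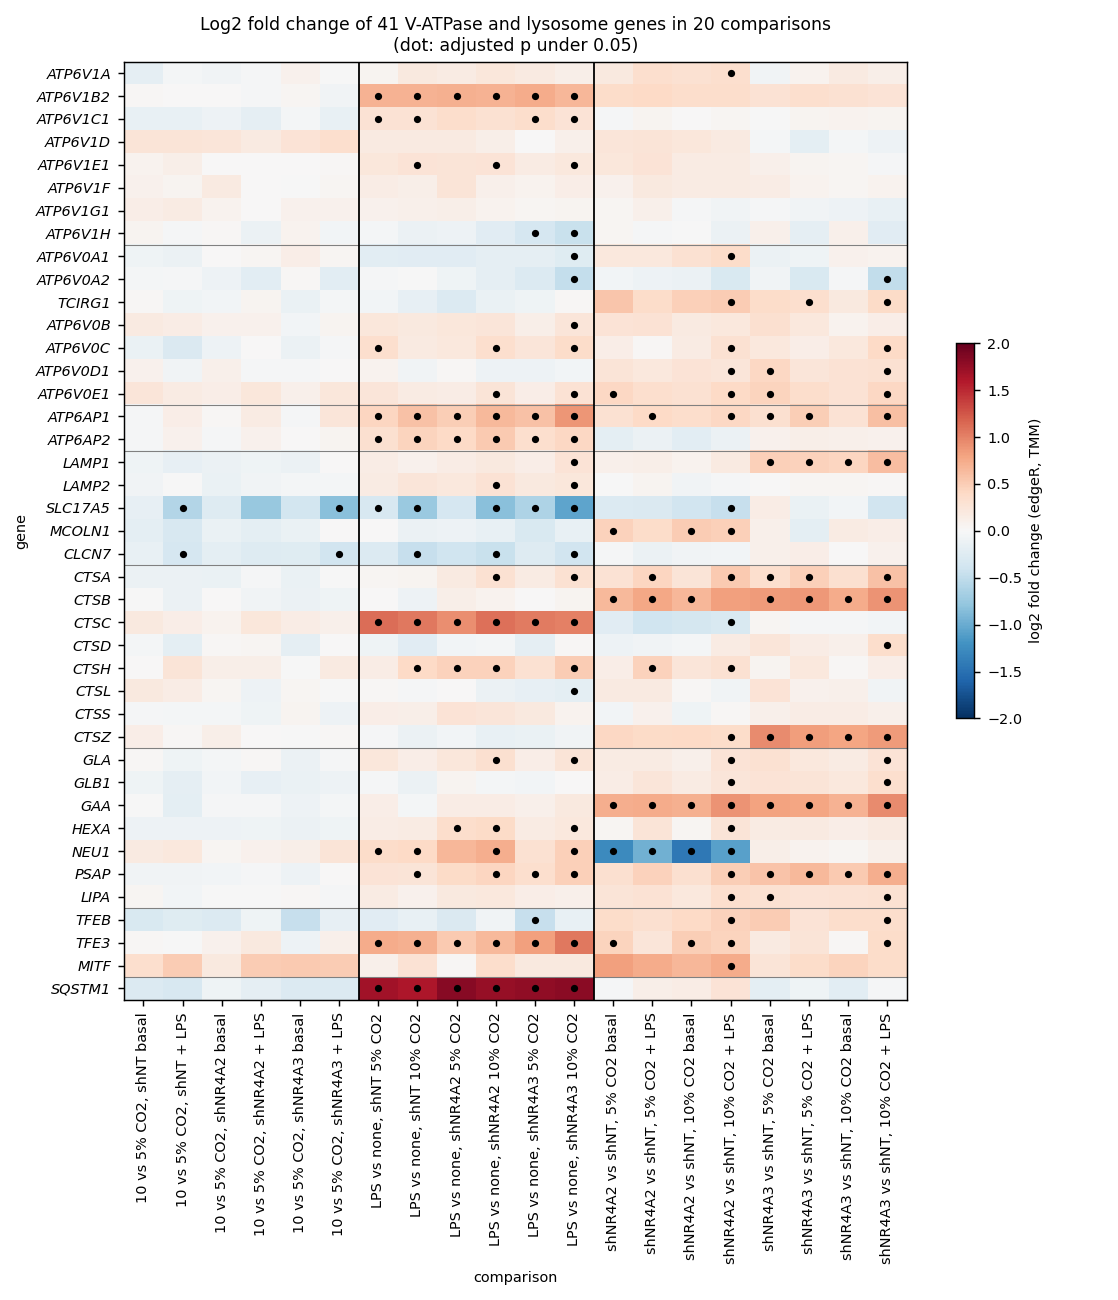
Log2 fold change of each of the 41 genes (rows, by role) in each comparison (columns: 10% over 5% CO2, LPS over no LPS, knockdown over shNT), with a dot where the adjusted p was under 0.05. Colours are limited to ±2. The CO2 columns hold 4 dots, for SLC17A5 and CLCN7 with LPS, and the most dots in a CO2, LPS or knockdown column are the 25 of LPS in shNR4A3 cells at 10% CO2.

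Interactions between line and treatment were tested for LPS at 5% CO2 and for CO2 in the presence of LPS. No member passed for either line, and 0% of all genes did. At an unadjusted p under 0.05 there were 0 members for LPS in both lines, 1 for CO2 in shNR4A2 and 0 for CO2 in shNR4A3 cells, and DESeq2 called 0. Of all genes, 2.22% and 4.82% had such a p for LPS in shNR4A2 and shNR4A3 cells, and 2.58% and 2.09% for CO2. The smaller number of CO2 calls in shNR4A2 cells is therefore not shown to be a difference from shNT cells. Members with CACGTG in their promoter were called at least once by knockdown in 7 of 10 cases and those without in 15 of 21, by LPS in 5 of 10 and 14 of 21, and by CO2 in 1 of 10 and 1 of 21. The share of all genes called at least once is not given here, so these counts have no background and only compare members with each other.

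Beyond the 41, other V-ATPase, lysosome and autophagy genes were listed, of which 107 were tested and ATP6V1G3 and ATP6V0A4 did not pass the filter. At 10% against 5% CO2, 13 were called in LPS-treated shNT cells (7 higher, 6 lower, with 8.19% of all genes called), 4 in LPS-treated shNR4A3 cells (all lower, 2.15% of all genes) and 1, lower, in basal shNR4A3 cells (1.13%), of which the first 2 are above the share of all genes and the last is near it. There were 0 in basal shNT, basal shNR4A2 and LPS-treated shNR4A2 cells (0.615%, 0.0113% and 0.198% of all genes). In these, 12, 9 and 18 of the 107 had a p under 0.05 before adjustment, against 14.9%, 8.07% and 16.3% of all genes. GABARAPL1, an ATG8-family autophagy gene, fell in 3 of the 6, by 0.88 in LPS-treated shNT cells and by 0.72 and 0.76 in basal and LPS-treated shNR4A3 cells. DMXL2, a subunit of the RAVE-like complex that assembles the pump, rose by 1.28 in LPS-treated shNT cells (adjusted p = 0.00571), and its values of 1.41 and 0.96 in shNR4A2 and shNR4A3 cells did not pass. FNIP2, a folliculin partner in lysosomal nutrient sensing, rose by 1.19, the metal transporter SLC11A2 by 0.75, and the phospholipase PLA2G15 fell by 0.71, all in LPS-treated shNT cells. In LPS-treated shNR4A2 and shNR4A3 cells these genes had the same direction but did not pass. The values were 1.06 and 0.88 for FNIP2, 0.91 and 0.66 for SLC11A2, and -0.56 and -0.49 for PLA2G15.

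With LPS, 16 of the 107 were called in shNT cells at 5% CO2 (9 higher, 7 lower) and 34 at 10% CO2 (18 and 16), 15 (9 and 6) and 37 (23 and 14) in shNR4A2 cells, and 25 (14 and 11) and 50 (27 and 23) in shNR4A3 cells. Of all genes, 22.9%, 31.2%, 18.2%, 35%, 25.3% and 42.1% were called in the same order, so that the listed genes lay near or below that share at 5% CO2, near it at 10% CO2 in shNT and shNR4A2 cells, and above it at 10% CO2 in shNR4A3 cells. LAMP3, a LAMP of activated myeloid cells, rose by 2.92 to 4.86, the autophagy receptor OPTN by 2.13 to 3.30, DMXL2 by 1.98 to 3.27, SLC11A2 by 1.57 to 2.49 and FNIP2 by 1.27 to 2.23, each in all 6 comparisons. In the knockdowns, 10 (8 higher, 2 lower), 11 (8 and 3), 16 (14 and 2) and 28 (25 and 3) were called in shNR4A2 cells at 5% CO2, 5% CO2 with LPS, 10% CO2 and 10% CO2 with LPS, and 14 (12 and 2), 15 (13 and 2), 19 (16 and 3) and 27 (22 and 5) in shNR4A3 cells. All 8 numbers are above the share of all genes, which was 5.69%, 6.21%, 7.95% and 18.9%, then 6.19%, 5.41%, 6.85% and 14.5%. LAMP3 rose by 1.71 in shNR4A2 and 1.74 in shNR4A3 cells at 10% CO2 with LPS. The asparaginyl endopeptidase LGMN rose by 1.57 in shNR4A2 cells at 10% CO2 with LPS and by 1.49 in shNR4A3 cells at 5% CO2 with LPS. The sulfamidase SGSH rose by 1.63 in shNR4A2 cells at 10% CO2 and was not called in the other 7 comparisons (-0.12 to 0.89). The V0 subunit ATP6V0D2 rose by 1.47 in shNR4A3 cells at 5% CO2 and was likewise not called in the other 7 (-0.09 to 0.95). CTSF, a cysteine cathepsin, fell by 2.20 in shNR4A3 cells at 10% CO2 (adjusted p = 0.0226) and was not called in the other 7 comparisons (-1.25 to 1.23).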

How the data were processed

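The authors sequenced polyA-selected RNA from the 36 libraries as paired reads on an Illumina HiSeq. Trimming used Trimmomatic 0.36, alignment to GRCh38 used STAR 2.5.2b and unique gene hits came from featureCounts (Subread 1.5.2), and the deposited values are raw counts per gene. The annotation release and strand setting are not given in the sources used here. Counts were fitted with edgeR 4.0.16 (TMM, robust quasi-likelihood test, R 4.3.3) over the 17720 genes kept by filterByExpr (minimum count 10, minimum total 15), each pairwise comparison on its own 6 libraries, with Benjamini-Hochberg adjustment over all genes and a gene called at an adjusted p under 0.05. The procedure was tested on simulated data. DESeq2, the study's tool, was run here in version 1.42.0 as an alternative, as were other scalings, no filter, a replicate block, 1 fit to all 36 libraries and leaving out each library. CPM uses TMM library sizes and TPM the deposited gene lengths.

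The members and lists were chosen with earlier results of these data known. Values in every library are given for the members called in the most comparisons of each family (first 3) and for the transcription factors, and up to 5 other pathway genes per family with the largest called change are named. NEU1 and LAMP1 were added after their values were seen. Library depth was 16171161 to 23929138 counts. With 3 libraries a group an exact two-sided permutation test cannot go below p = 0.1. Same-numbered libraries deviated together (every r above 0.1) in 5 of 6 LPS comparisons (not in shNT cells at 5% CO2), in 7 of 8 knockdown comparisons (not in shNR4A2 cells at 10% CO2 without LPS), in all 4 comparisons of the lines and in 1 of 6 CO2 comparisons (basal shNR4A2 cells). The labels name no shared batch, and the pairing comes from these correlations. Some genes of the marker and pathway lists are not reported here.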

Additional observations from a re-analysis of the deposited data

Results flagged for a closer look

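These members differed between the 2 knockdown lines in a direct test of shNR4A3 against shNR4A2 cells (edgeR quasi-likelihood test, adjusted over all genes), a comparison chosen after the values had been seen. NEU1 was higher in shNR4A3 cells by 1.39 on the log2 scale at 5% CO2 (adjusted p = 0.000217), by 1.46 at 10% CO2 (1.93e-07) and by 1.196 at 10% CO2 with LPS (1.92e-05), and no left-out library ended these calls. LAMP1 was higher by 0.35 at 10% CO2 (adjusted p = 0.0102) and by 0.44 with LPS (0.0026), the first of which was lost without shNR4A3 replicate 1 or 3 (up to 0.0623). CTSZ was higher by 0.54 at 5% CO2 (adjusted p = 0.0289) and by 0.47 at 10% CO2 with LPS (0.0158). The first CTSZ call was lost without shNR4A2 replicate 3 or shNR4A3 replicate 1 or 3 (adjusted p up to 0.141), and the second without shNR4A2 replicate 2 or 3 or shNR4A3 replicate 1 or 3 (up to 0.1). At 10% CO2 without LPS, CTSC was higher by 0.34, and that call was lost without shNR4A2 replicate 3 or shNR4A3 replicate 1 or 2 (adjusted p up to 0.137). There SQSTM1 had -0.37, lost without shNR4A2 replicate 3 or shNR4A3 replicate 2 or 3 (up to 0.174), and TFE3 had -0.47, which no left-out library ended.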

How the results depend on the processing

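Values are numbers of the 41 members called. Of the CO2 comparisons, LPS-treated shNT cells gave 1 in 1 fit to all 36 libraries. The same comparison gave 3, all lower, by RLE, library size, no filter, DESeq2 or the replicate block. LPS-treated shNR4A2 cells gave 1 with no filter, DESeq2, the replicate block or the 36-library fit. LPS-treated shNR4A3 cells gave 1 by library size, and 1 higher and 1 lower in the 36-library fit. Basal shNR4A3 cells gave 1 by RLE or library size, 2 with no filter or DESeq2 and 3 with the replicate block. Of the LPS comparisons at 5% CO2, shNT cells gave 16 with the replicate block, shNR4A2 cells 14 with it and 16 in the 36-library fit, and shNR4A3 cells 19 with it and 17 by library size. For shNR4A2 against shNT cells, 5% CO2 gave 10 with no filter, 22 with the replicate block and 10 in the 36-library fit, and with LPS 11, 27 and 14, and 10 by DESeq2. At 10% CO2 it gave 8 by library size, 10 with no filter, 11 by DESeq2, 13 with the replicate block and 10 in the 36-library fit. For shNR4A3 against shNT cells the replicate block gave 17 at 5% CO2, 18 with LPS and 12 at 10% CO2, where DESeq2 gave 11 and the 36-library fit 10. Between the lines, 5% CO2 gave 4 by DESeq2, 12 with the replicate block and 5 in the 36-library fit, and with LPS 3, 16 and 7, and 5 with no filter. At 10% CO2 they gave 8 with no filter and 15 with the replicate block, and with LPS 13 with the replicate block and 5 in the 36-library fit. The causes were not tested.

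With each library left out in turn, the CO2 numbers ranged from 0 to 2 in LPS-treated shNT and shNR4A3 cells, from 0 to 1 in LPS-treated shNR4A2 and basal shNR4A3 cells, and stayed at 0 in basal shNT and shNR4A2 cells. LPS numbers ranged from 7 to 9 and 9 to 15 in shNT cells at 5% and 10% CO2, 4 to 10 and 11 to 19 in shNR4A2 cells, and 7 to 14 and 17 to 25 in shNR4A3 cells. Knockdown numbers at 5% CO2, 5% with LPS, 10% and 10% with LPS ranged from 2 to 8, 1 to 12, 2 to 8 and 9 to 22 in shNR4A2 cells and from 5 to 8, 5 to 12, 4 to 9 and 11 to 19 in shNR4A3 cells. Between the lines they ranged from 1 to 3, 0 to 1, 3 to 11 and 2 to 6.

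Of 180 called values of single members, 177 kept direction and call under RLE, 133 by library size, 157 with no filter, 176 with DESeq2, 180 with the replicate block and 156 in the 36-library fit, and 788 of 1080 with a library left out. The only reversals were by library size, for LPS in shNR4A3 cells at 10% CO2: ATP6V1E1 (-0.0436), ATP6V0B (-0.0039), LAMP2 (-0.0265) and HEXA (-0.0368).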

Other observations

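Outside the 41 genes, a pair of pathway genes picked after their values were seen differed in 1 knockdown line each. LAMTOR5, a subunit of the Ragulator complex that anchors nutrient signalling to the lysosome, was lower in shNR4A2 than in shNT cells in all 4 conditions, with log2 fold changes of -1.11, -1.26, -1.18 and -1.31 at 5% CO2, 5% CO2 with LPS, 10% CO2 and 10% CO2 with LPS (edgeR adjusted p = 0.000309 or less). In shNR4A3 cells LAMTOR5 had values of -0.03 to 0.04, none called, and the direct comparison of the lines was called in all 4 conditions (adjusted p = 0.00119 or less). ATP6V1C2, an alternative C subunit of the V1 sector, was lower in shNR4A3 cells in all 4 conditions, by 0.90 to 1.25 (adjusted p = 0.00225 or less), and had -0.07 to 0.21 in shNR4A2 cells, none called. The lines differed for ATP6V1C2 by -0.92 to -1.33 (adjusted p = 0.00366 or less).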
